A study of Camellia sinensis with 9 samples.

Results

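The high-numbered miRNA families of the tea plant, Camellia sinensis, were taken as all listed miRNAs whose name carries a number of 1000 or more, leaving out the families miR2111, miR2118, miR4376 and miR7122. The rule gave 72 of the 371 named miRNAs. Rows with the same sequence were joined over the whole table, which left 341 distinct sequences, and no high-numbered sequence shared its letters with another row. The 72 sequences belong to 26 families, of which miR7782 (25 sequences), miR8005 (9) and miR1511 (8) are the largest, and 18 families have a single sequence. Root, flower and leaf of untreated plants were represented by 3 small RNA libraries each. The labels give no cultivar, age or plant of origin, so the spread between libraries may be technical.

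Plant miRNAs are cut from RNA hairpins, mostly as sequences of 20 to 22 nucleotides that often begin with U, and they guide Argonaute proteins to complementary mRNAs. Families are numbered in the order of their discovery. Those with low numbers tend to be old, abundant and shared by most flowering plants, whereas high numbers tend to mark families found later, in few lineages and at low abundance. A hairpin gives a 5p and a 3p sequence, named after its arms. The target genes in tea and the genomic positions were not analysed here.

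The sequences fall into sets that differ in their letters, and these sets order the results. A run of 11 letters, CUCUGAUACCA, recurred in 13 of the 72 sequences, with 10 names of miR7782 or miR1511 on the 5p arm, miR1511_3p, MIR7782b_3p and miR1873_5p. The more abundant of them and the lowest in reads are shown to let the shared run be compared, with the run in capitals and U written for T.
miR1511_3p: aaccuggCUCUGAUACCA
MIR7782l_5p: uucuaaaccugCUCUGAUACCAug
MIR7782d_5p: uaaaccugCUCUGAUACCAug
MIR7782f_5p: aaaccugCUCUGAUACCAug
MIR7782n_5p: uaaaccugCUCUGAUACCA
MIR1511d_5p: uuaaccuagCUCUGAUACCAug
miR1873_5p: uggCUCUGAUACCAuguuga

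The run stood in 18.1% of the high-numbered sequences, in 1.49% of the other 269 (4 sequences, each a 3p arm of miR845) and in 4.99% of all 341. It was picked after the sequences had been seen. The share counts overlapping entries separately. MIR7782a_5p, MIR7782d_5p, MIR7782f_5p, MIR7782n_5p and MIR7782q_5p all lie within MIR7782l_5p, and MIR7782b_3p lies within MIR7782c_5p. In miR1511_3p and MIR7782n_5p nothing follows the run, and in the other 11 it is followed by 1 to 6 bases. The reverse complement of the run, UGGUAUCAGAG, occurred in miR5485_5p and MIR1873a_3p, which had no read. As background, plant initiator methionine tRNA ends in these letters, the terminal CCA included, and the complement of that tRNA end is the primer binding site of many plant LTR retrotransposons. No tRNA or transposon sequence was compared here, so the origin of the reads was not tested.

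A second set, mostly the opposite arms of miR7782, is rich in G and U. The 5 letters GUAGG stood in 16 of the 72 sequences (22.2%) and in 6 of the other 269 (2.23%), which are 5p arms of miR845, and in 6.45% of all. The 2 sequences that held nearly all of the reads of this set are shown with GUAGG in capitals.
MIR7782h_3p: guguguaGUAGGuaaggaGUAGGu
MIR7782n_3p: guaGUAGGuggugGUAGGuguagu

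A further set is miR8005. The 7 letters UUUAGGG, known as the unit of the telomere repeat of most plants, stood in 7 of its 9 sequences, that is in 9.72% of the 72, in 1 of the other 269 sequences (0.372%) and in 2.35% of all. MIR8005e_5p is made of this unit throughout, and its opposite arm holds it once, as shown with the unit in capitals.
MIR8005e_5p: UUUAGGGUUUAGGGUUUAGGGuuu
MIR8005e_3p: gguuuagaguuuaaggUUUAGGGu

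The remaining sequences with the most reads are 20 or 21 nucleotides long. They are shown with the seed, bases 2 to 8, in capitals, beside the listed sequences nearest to miR5301_3p.
MIR1446a_5p: uUCUGAACucucucccucaau
MIR1446a_3p: uGAGUGUGggaguucugaaaa
miR5301_3p: uUUCCUAUuccucccauacc
miR482d_3p: uCUUCCCUacaccucccauacc
miR482c_3p: uCUUGCCCacaccucccauacc
miR6149_5p: aUACGCACcugaaucgguag
MIR3627a_5p: uGUCGCAGgagagauggcacu
miR6453_5p: uGUCGCAGgaaagaugguacc

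miR5301_3p lay 4 edits (substitutions, insertions or deletions) from miR482d_3p, 5 from miR482c_3p and 6 from miR2118a_3p. The miR482 and miR2118 families are known for targeting NBS-LRR disease resistance genes. MIR3627a_5p and miR6453_5p share their seed and differ by 3 edits. They lay 7 and 6 edits from miR4376_5p, of a family known in tomato to act on a calcium-pumping ATPase mRNA. For MIR3627a_5p, a sequence of miR156 (MIR156j_5p/miR156b_5p) lay equally near, at 7 edits, so this distance does not set miR4376 apart. No high-numbered sequence came within 2 edits of a sequence outside the set, only 3 came within 5, and the median distance to the nearest was 8.5 edits.

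Length set the 72 sequences apart from the rest of the table as a description. Of the 72, 29 (40.3%) were 20 to 22 nucleotides long, against 87% of the other 269. Sequences of 24 nucleotides, the size class of the small RNAs that plants mostly make from repeats and transposons, made up 22.2% of the 72 and 4.83% of the others, and those under 20 made up 27.8% and 4.83%. The first base was U in 44.4% of the 72 and in 39.4% of the others, so this feature differed little.

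**Figure D1:**
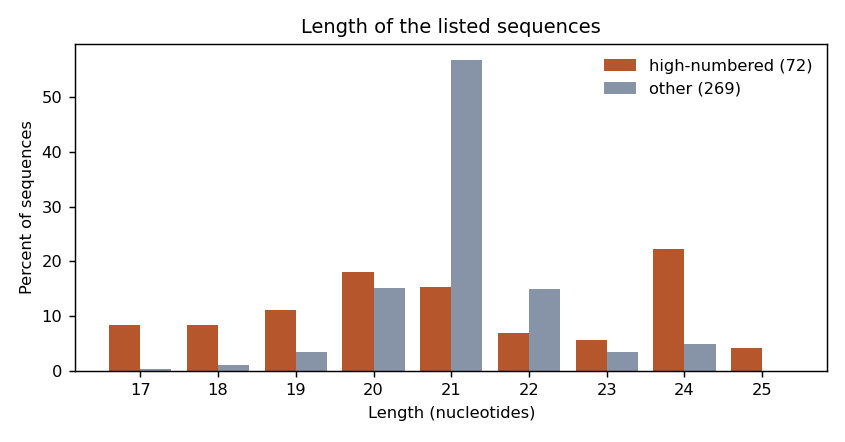
Length of the listed sequences in nucleotides (x axis) as a percent of the 72 high-numbered sequences and of the other 269 (y axis). The high-numbered sequences spread from 17 to 25 nucleotides, with 22.2% at 24, whereas 56.9% of the others are 21 long.

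The arms of one hairpin should pair with short overhangs at both 3′ ends. Among the 21 high-numbered hairpins with both arms listed, 10 formed a duplex of at least 15 base pairs with overhangs read as 1 to 3 bases at both ends in a fold of the 2 arms, against 57 of 70 other hairpins. The fold's output can take an unpaired base beside the last pair into the duplex, so an overhang can be read 1 base short. The counts of 10 and 57 hold only for overhangs so read. The median was 15 pairs for the high-numbered hairpins and 17 for the others. MIR1446a (16 pairs), MIR3627a (17 pairs) and MIR7782l (16 pairs) met these limits as read. The arms of MIR7782h, with 12 pairs and an overhang read as 10, and of MIR7782n, with 11 pairs and an end read as recessed by 5, did not.

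With identical sequences joined, the root libraries held 369605 to 662023 reads of listed miRNAs, those of flower 876770 to 1073284 and those of leaf 476517 to 530334. The library leaf41 stood apart. Its log2 CPM correlated at 0.741 and 0.781 with the other leaf libraries, which reached 0.938 with each other, and at 0.705 to 0.775 with the root libraries. The edgeR calls of members against leaf are therefore given with and without leaf41. Other results that rest on leaf are given without it only where stated. A table of miRNAs holds no marker genes of organs, so the labels could not be checked in that way.

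The high-numbered miRNAs were rare. Of the 72, 29 (40.3%) had no read in any library, 30 had 1 to 9 reads and 13 had 10 or more, whereas 13.4% of the other 269 had none and 60.6% had 10 or more. A count of 0 allows up to 3 reads in a library, and this and all intervals below cover counting error only. The 15 families without a read, each of 1 sequence, were miR1318, miR1507, miR1879, miR2624, miR2629, miR2936, miR4388, miR4403, miR4413, miR5162, miR5205, miR5376, miR5485, miR5558 and miR6145. miR1507 is known in legumes for targeting NBS-LRR genes. Of the 20 members that the table spells miR, 15 had no read, and of the 52 spelled MIR, 14 had none. Whether the spelling has a meaning is not stated in the table.

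In all, 26 members were detected in root, 27 in flower and 23 in leaf by at least 1 read in any library, 13 of them in all 3 organs. In all 3 libraries of an organ, 9 were detected in root, 11 in flower and 5 in leaf. Members seen in 1 organ alone, 8 in root, 11 in flower and 4 in leaf, had at most 1, 3 and 3 reads, which is too few to call them particular to that organ. A single library showed 12 to 21 of the 72. In 4 cases a member was detected in all 9 libraries, which were miR1511_3p, MIR7782h_3p, MIR7782n_3p and MIR7782l_5p.

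The root, flower and leaf means of the members' share of the reads of all listed miRNAs were 0.233% ± 0.0926, 0.108% ± 0.0592 and 0.106% ± 0.0118 (SD, n = 3 each). Flower, at 0.0438% to 0.16%, overlapped with both other organs, while the lowest root library, at 0.129%, lay above the highest leaf library, at 0.113%. Most of these reads were those of miR1511_3p. Without it, the means in the same order were 0.0542% ± 0.00884, 0.0264% ± 0.00394 and 0.0584% ± 0.0234 (SD, n = 3 each). In flower it then lay below all root and leaf libraries, with 0.0307 as the highest flower value and 0.0364 in leaf41 as the lowest of the others. This holds for unscaled shares only. The TMM factors used for the CPM values below ran from 0.784 in flower2 to 1.51 in root13. Divided by them, the share of flower2 (0.0307% unscaled) lies above that of root13 (0.0446% unscaled), so the organs then overlap.

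**Figure D2:**
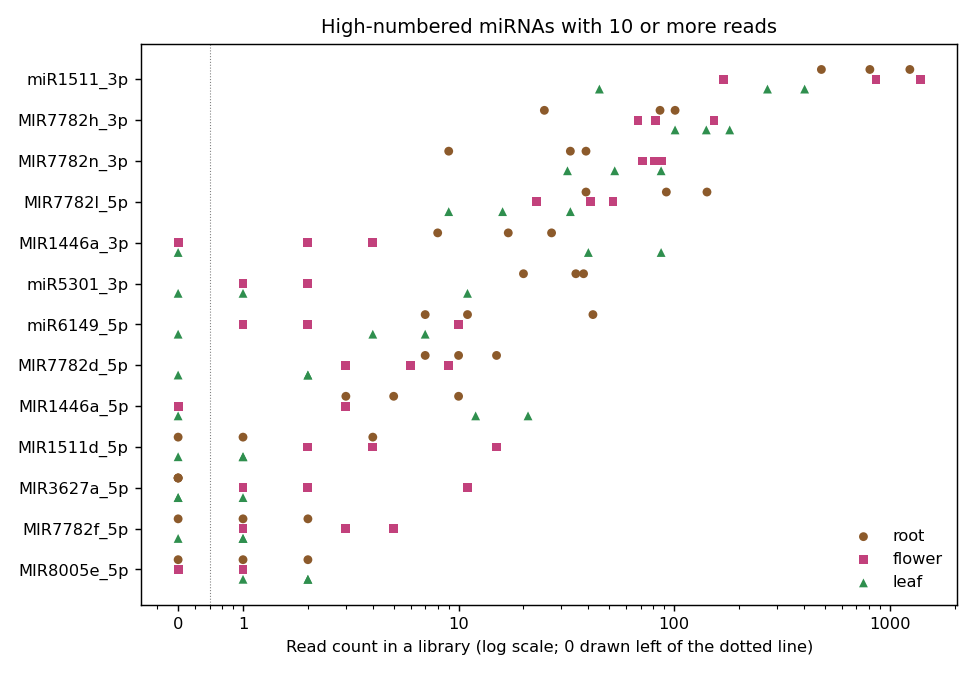
Read counts per library (x axis, log scale, 0 drawn left of the dotted line) of the 13 high-numbered miRNAs with 10 or more reads over the 9 libraries. Each point is 1 library of root, flower or leaf. miR1511_3p leads with up to 1387 reads, and miR5301_3p has 20 to 38 reads in root against 1 or 2 in flower.

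The counts were compared between organs with edgeR's quasi-likelihood test over all sequences, with Benjamini-Hochberg adjustment and a threshold of 0.05. A sequence was tested if it reached 18.9 CPM, the count scaled to the library, in at least 3 libraries, which 129 of 341 sequences and 6 of the 72 members did. The members miR1511_3p, MIR7782h_3p, MIR7782n_3p and MIR7782l_5p reached it in all 9 libraries. MIR1446a_3p reached it in root and in 2 leaf libraries, and miR5301_3p in root and in leaf41, so both entered the test through the organs in which they were high. CPM values below are scaled with TMM factors. In such bulk samples, fewer cells with a miRNA and less of it per cell cannot be told apart.

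Between root and leaf, 2 of the 6 tested members were called, both higher in root, where 34.9% of all 129 sequences were called and 21.7% were called higher in root. Between flower and leaf, 1 of the 6 was called, lower in flower, against 36.4% of all sequences and 19.4% lower in flower. Between flower and root, 1 of the 6 was called, lower in flower, against 42.6% and 24% of all. The shares of members called were thus near or under those of all sequences. The median log2 fold change of the 6 members was 0.49 for root against leaf, -0.60 for flower against leaf and -1.25 for flower against root, beside 0.56, -0.12 and -0.04 over all sequences. Called higher in flower were 18.6% of all sequences against root and 17.1% against leaf, and lower in root than in leaf 13.2%, with no member among them. Without leaf41, 8 members were tested. The added MIR1446a_5p passed the filter through leaf alone and the added MIR7782d_5p through root alone. Of the 8 members, 3 were then called for root against leaf, all higher in root, where 56.7% of all sequences were called, 36.9% higher and 19.9% lower. For flower against leaf 2 were called, both lower, beside 43.3% of all and 18.4% lower, and for flower against root 2, both lower, beside 50.4% of all and 27.7% lower. The 3 comparisons share libraries pairwise and are not independent of each other.

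The split of all calls moved with the scaling, the joining of rows, the test and the libraries used. For root against leaf it was 28 higher and 17 lower with TMM, 26 and 28 with the DESeq2 size factors, 33 and 35 with DESeq2, and 14 and 36 over the rows as listed. It was also 11 and 27 with only the 6 libraries and 11 and 34 without flower45. For flower against leaf it was 22 and 25 with TMM, 30 and 21 with the authors' divisor, and 20 and 48 over the rows. For flower against root it was 24 and 31 with TMM, 34 and 29 when DESeq2 was used, and 37 and 29 under the divisor of the authors. The median log2 fold change of all sequences moved accordingly, from 0.56 to -0.34 over the rows for root against leaf, from -0.12 to -1.16 over the rows for flower against leaf and from -0.04 to 0.64 with the authors' divisor for flower against root.

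Among the sequences with ordinary lengths, miR5301_3p, the relative of miR482, was highest in the root libraries. It had 20, 35 and 38 reads in root13, root23 and root33, 2, 1 and 1 in flower1, flower2 and flower45, and 1, 0 and 11 in leaf1, leaf23 and leaf41. The lowest root library lay above all others, and the leaf reads came almost entirely from leaf41. The root, flower and leaf means were 58.1 ± 23.2, 1.66 ± 0.666 and 6.52 ± 9.63 CPM (SD, n = 3 each). Flower differed from root by log2 -4.97 ± 1.17 SE (edgeR adjusted p = 0.008). The sequence reached the filter's cutoff in the root libraries, in leaf41 and in no flower library. It thus entered the filtered fits mainly through root, where it was high, so its calls there are no added support. The fit with no low-count filter also called this difference (-4.53, edgeR adjusted p = 0.00031). The scaled ratio of the 93 root reads to the 4 flower reads was 34, with a 95% exact counting interval of 12.9 to 128.

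The flower and root difference of miR5301_3p had the same sign under every alternative tried and was called in all except one of them, the fit without flower2 (log2 -4.61, adjusted p = 0.0551). It was also higher in root than in leaf (log2 3.07 ± 1.05 SE, edgeR adjusted p = 0.0497), a value just under the threshold. Without leaf41 the difference was 5.57 (adjusted p = 0.003). The call was not made with the authors' divisor (2.92), over the rows as listed (2.33), with no low-count filter (2.44), with only the 6 libraries (2.35), or in any of the fits that left out one of the 8 other libraries (2.36 to 3.23). The difference between flower and leaf was not called (-1.90 ± 1.14 SE, edgeR adjusted p = 0.228) and was 0.76 without leaf41.

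The nearest listed relatives of miR5301_3p had next to no reads, with none for miR482d_3p, 1 for miR482c_3p and 2 for miR2118a_3p. MIR482b and MIR482c, with 25641 and 336 reads, lay 8 edits from it. This is near the members' median distance to the nearest outside sequence (8.5 edits), so the letters do not mark them as relatives.

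MIR1446a, of a family first described in poplar, was highest on both arms in the leaf libraries leaf1 and leaf23. The 3p arm had 8, 27 and 17 reads in root13, root23 and root33, 2, 0 and 4 in flower1, flower2 and flower45, and 87, 40 and 0 in leaf1, leaf23 and leaf41. The 5p arm had 3, 10 and 5 reads in root, 0, 0 and 3 in flower, and 21, 12 and 0 in leaf, in the same order of libraries. Both arms were thus missing from leaf41 alone among the leaf libraries, low in flower and intermediate in root. The 3p arm was the more frequent in every library that had reads of both, by 1.33 times in flower45, 2.67 to 3.4 times in root and 3.33 and 4.14 times in leaf.

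The root, flower and leaf means of MIR1446a_3p were 31.5 ± 15.2, 2.62 ± 2.73 and 83.3 ± 86.4 CPM (SD, n = 3 each). It was lower in flower than in leaf by log2 -4.91 ± 1.66 SE (edgeR adjusted p = 0.0414), although flower and leaf overlapped through leaf41. The 3p arm entered the filtered fits through root and 2 leaf libraries and no flower library, so its calls there are no added support. The fit with no low-count filter also called this difference (-5.62, edgeR adjusted p = 6.18e-05). The scaled ratio of 127 leaf reads to 6 flower reads was 30.9 (95% exact counting interval 13.8 to 85.7). Without leaf41 the difference was -5.39 (adjusted p = 0.00395) and the 5p arm, then tested, was also called (-4.37, adjusted p = 0.00972). The 5p arm reached the filter's cutoff in 2 leaf libraries and in no root or flower library. The filtered fits that tested it thus took it in through leaf, where it was high, so its calls there are no added support. The 5p arm was called as well without flower45 (-7.50) and with no low-count filter (-4.55), and not in the 5 other fits that tested it (-3.77 to -3.20). Leaving out a library ended the call of the 3p arm in 7 of 9 cases, all except without flower45 or leaf41, with log2 -4.83 to -3.80, and the authors' divisor ended it too (-4.30).

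Against root, MIR1446a_3p was lower in flower by log2 -3.52 ± 1.59 SE without passing the test (edgeR adjusted p = 0.105), although no flower library reached the lowest root library in CPM. Without leaf41, with only the 6 libraries and with no low-count filter it did pass (-3.31, adjusted p = 0.0165, in the first case). The difference between root and leaf was not called (-1.39 ± 1.39 SE, edgeR adjusted p = 0.401). Without leaf41 it was -2.08 (adjusted p = 0.0644).

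Among the sequences with the run CUCUGAUACCA, miR1511_3p was by far the most abundant. miR1511 is known in common bean for acting on an ALS3-like transporter mRNA, a gene of aluminium tolerance. Whether the tea sequence does so was not tested. It ends with the run itself, the letters noted above for a tRNA end, and the origin of its reads was not tested either. The tea sequence had 809, 482 and 1240 reads in root13, root23 and root33, 169, 1387 and 864 in flower1, flower2 and flower45, and 45, 271 and 403 in leaf1, leaf23 and leaf41. It ranked 42 among all 341 sequences by reads and held 10% of the members' reads in leaf1 and 83.1% in root13. In all 3 organs the libraries of one organ differed widely, and flower overlapped with both root and leaf, while the lowest root library in CPM lay above the highest leaf library.

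The root, flower and leaf means of miR1511_3p were 1637 ± 967, 1010 ± 736.5 and 419.5 ± 292 CPM (SD, n = 3 each). No comparison passed the test. The difference was log2 1.96 ± 0.96 SE for root against leaf (edgeR adjusted p = 0.127), 1.27 ± 0.94 for flower against leaf (adjusted p = 0.334) and -0.70 ± 0.93 for flower against root (adjusted p = 0.526). Without leaf41 the first 2 were 2.38 (edgeR adjusted p = 0.0974) and 1.73 (adjusted p = 0.24), also not called.

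MIR7782l_5p, the second of this set, had 39, 142 and 92 reads in root13, root23 and root33, 52, 41 and 23 in flower1, flower2 and flower45, and 16, 9 and 33 in leaf1, leaf23 and leaf41. The means in the same order of organs were 165.9 ± 84.3, 47.7 ± 15.8 and 34.0 ± 17.8 CPM (SD, n = 3 each). All root libraries lay above all flower and leaf libraries, which overlapped. It was higher in root than in leaf by log2 2.28 ± 0.74 SE (edgeR adjusted p = 0.041) and 2.63 without leaf41 (adjusted p = 0.0223). The call was also made with library totals, with DESeq2 and without root13, and not with the DESeq2 size factors (1.85), the authors' divisor (2.22), the rows as listed (1.39), no low-count filter (1.46), only the 6 libraries (1.36) or without any one of the 7 other libraries (1.39 to 2.12).

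Against flower, MIR7782l_5p was not called (log2 -1.79 ± 0.72 SE for flower against root, edgeR adjusted p = 0.0728), but library totals (-2.05) and DESeq2 (-1.52) called it. Flower and leaf did not differ by the test (0.48 ± 0.71 SE, edgeR adjusted p = 0.612), nor without leaf41 (1.07, adjusted p = 0.283). The adjusted p of the flower and root comparison was under the threshold in these 2 alternatives alone.

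The shorter forms of MIR7782l_5p had fewer reads. MIR7782d_5p, which lacks its first 3 bases, had 10, 15 and 7 reads in root13, root23 and root33, 9, 6 and 3 in flower1, flower2 and flower45, and 2, 0 and 2 in leaf1, leaf23 and leaf41. As for the longer form, root was highest and leaf lowest, with root and flower overlapping in reads but not in CPM. The scaled ratio of 32 root reads to 4 leaf reads was 8.02 (95% exact counting interval 2.85 to 31.2). It did not pass the low-count filter with all 9 libraries, since only 2 root libraries and no flower or leaf library reached it. The filtered fits that tested it for root against leaf thus took it in through root, the organ in which it was high. In the edgeR fits that tested it for root against leaf, it was called higher in root without leaf41 (log2 3.07, adjusted p = 0.0251), flower1, flower2 or leaf23 (2.24 to 2.76). It was not called without flower45 (2.12, adjusted p = 0.0898), leaf1 (3.18, adjusted p = 0.0602) or root33 (2.83, adjusted p = 0.0503), nor with all 9 libraries and no low-count filter (2.18, adjusted p = 0.132).

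MIR7782f_5p had 0, 2 and 1 reads in root, 3, 5 and 1 in flower, and 0, 1 and 1 in leaf. Among all members, 18 pairs were found in which one sequence lies within another. In 15 of the 17 pairs with a read of the longer sequence, the shorter had fewer reads than the longer, so reads of the longer sequence were not also counted for the shorter.

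MIR1511d_5p had 0, 1 and 4 reads in root13, root23 and root33, 4, 15 and 2 in flower1, flower2 and flower45, and 1, 1 and 0 in leaf1, leaf23 and leaf41. Most of its flower reads came from flower2, the library with the most reads of miR1511_3p as well. The scaled ratio of 21 flower reads to 2 leaf reads was 7.2 (95% exact counting interval 1.76 to 63.3), an interval that leaves out the spread between libraries. It did not pass the low-count filter, and with no filter the difference was not called (log2 2.18, edgeR adjusted p = 0.234). The 4 miR845 sequences with the same run had 778 reads together, with 40 to 130 per root library, 52 to 95 per flower library and 77 to 102 per leaf library.

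The G- and U-rich 3p arms of miR7782 were highest in leaf1, unlike the 5p arms. MIR7782h_3p had 25, 86 and 101 reads in root13, root23 and root33, 82, 153 and 68 in flower1, flower2 and flower45, and 181, 141 and 101 in leaf1, leaf23 and leaf41. MIR7782n_3p had 9, 39 and 33 reads in root, 71, 81 and 87 in flower, and 87, 53 and 32 in leaf. Both were lowest in root13, and the organs overlapped in most pairs, with the exception of flower and root for MIR7782n_3p.

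The root, flower and leaf means of MIR7782h_3p were 133.9 ± 86.9, 124.6 ± 49.7 and 264.5 ± 99.05 CPM, and those of MIR7782n_3p were 50.1 ± 29.7, 100.2 ± 16.7 and 108.8 ± 60.9 CPM (SD, n = 3 each). Neither passed the edgeR test in any comparison. Nor did they for root against leaf without leaf41 (log2 -1.31 and -1.55, edgeR adjusted p = 0.155 and 0.0913). For root against leaf the differences were log2 -0.98 ± 0.75 SE (adjusted p = 0.298) and -1.12 ± 0.74 (adjusted p = 0.244), and DESeq2 called both lower in root (-1.60 and -1.72, adjusted p = 0.0341 and 0.0357). DESeq2 thus called 4 of the 6 members for root against leaf, where it called 52.7% of all sequences, 25.6% higher and 27.1% lower in root. For flower against root it called 2 members, both lower in flower, beside 48.8% of all sequences.

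Because these sequences stand in one library together, their ratio does not depend on the scaling. The count of MIR7782l_5p divided by that of MIR7782h_3p averaged 1.37 ± 0.403, 0.413 ± 0.194 and 0.16 ± 0.145 over the root, flower and leaf libraries (SD, n = 3 each). The root libraries, at 0.911 to 1.65, lay above flower, at 0.268 to 0.634, and leaf, at 0.0638 to 0.327, while flower overlapped with leaf through leaf41. The ratio of the G- and U-rich sequences MIR7782h_3p and MIR7782n_3p was 2.68 ± 0.433 in root, 2.63 ± 0.54 in leaf and 1.27 ± 0.564 in flower. Sequences listed under 1 family thus differed in their order among the organs. These ratios were chosen after the counts had been seen and were not tested.

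**Figure D3:**
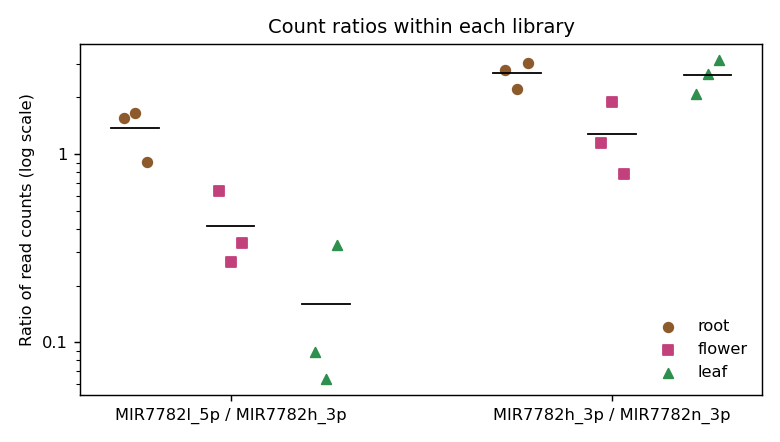
Ratio of the read counts of 2 sequences within each library (y axis, log scale), for MIR7782l_5p over MIR7782h_3p and for MIR7782h_3p over MIR7782n_3p (x axis). Points are the 3 libraries of an organ and lines their means. The first ratio is highest in root, at 0.911 to 1.65, and the second is lowest in flower, at 0.782 to 1.89.

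For each of these abundant arms, the opposite arm of the same hairpin name was nearly absent. MIR7782h had 938 reads of its 3p and 2 of its 5p arm, MIR7782n had 492 and 1, and MIR7782l had 3 and 447. Of all miR7782 reads, the 13 sequences named 3p held 1441 and the 12 named 5p held 532. MIR1446a, with 185 and 54 reads, was the only high-numbered hairpin with at least 10 reads of both arms.

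The remaining members with 10 or more reads did not pass the low-count filter with all 9 libraries. miR6149_5p had 42, 11 and 7 reads in root13, root23 and root33, 1, 10 and 2 in flower1, flower2 and flower45, and 4, 0 and 7 in leaf1, leaf23 and leaf41. The value of root13 set its root mean, and in reads root met flower and leaf, while in CPM every root library lay above all flower and leaf libraries. The scaled ratio of 60 root reads to 13 flower reads was 6.76 (95% exact counting interval 3.67 to 13.4). With no low-count filter it was called lower in flower than in root (log2 -2.45, edgeR adjusted p = 0.0449). It was not called in the other fits that tested it, with the authors' divisor (-2.13, adjusted p = 0.149) and with only the 6 libraries (-2.41, adjusted p = 0.0512).

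MIR3627a_5p had no read in root, 2, 11 and 1 in flower1, flower2 and flower45, and 0, 1 and 0 in leaf1, leaf23 and leaf41. In root, the limit of 3 reads per library equals 4.83 to 6.49 CPM, and flower stood at 5.62 ± 6.48 CPM (SD, n = 3), so no fold is given. Its relative miR6453_5p had 3 reads, all in leaf23, and miR1318_5p had none. With no low-count filter MIR3627a_5p was called higher in flower than in root, with flower2 holding 11 of its 14 flower reads. In that fit, 4 of 43 members were called for flower against root, 1 higher and 3 lower in flower, where 25.7% of all 276 sequences were called, 12.7% higher and 13% lower. For flower against leaf 2 of 43 were called, both arms of MIR1446a and both lower in flower, beside 22.8% of all, 7.97% higher and 14.9% lower. For root against leaf none of 43 was called by edgeR, beside 23.6% of all, 5.8% higher and 17.8% lower, and DESeq2 with the usual filter called 4.

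MIR8005e_5p, the telomere-like repeat, had 1, 0 and 2 reads in root, 1, 0 and 1 in flower, and 1, 2 and 2 in leaf, so no organ stood out. Its opposite arm had 1 read in each flower library and none elsewhere, and MIR8005a_5p had 1 read. The other 6 miR8005 sequences had none. The 59 members with fewer than 10 reads held 50 reads together, with 1 to 9 in each library.

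**Figure D4:**
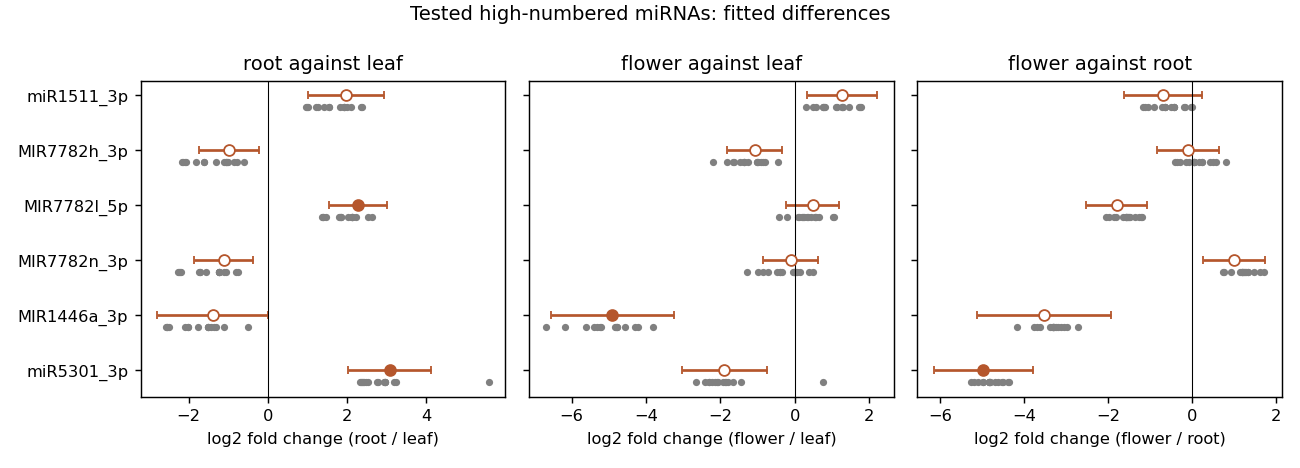
Log2 fold changes of the 6 tested members (y axis) in the 3 organ comparisons (x axis). Large points are the edgeR values with 1 SE, filled where the adjusted p is under 0.05, and small grey points are the values under the alternatives. The flower and root difference of miR5301_3p lies below 0 in all of them, and its root and leaf difference moves from 3.07 to 5.57 without leaf41.

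The left-out families with numbers of 1000 or more differed from the members in abundance. Their 6 sequences had 27442 reads, against 8150 for the 72 members, and 25935 of these belonged to MIR7122a_5p, of a family known for starting the production of secondary small RNAs. Of the 5 that were tested, none was called for root against leaf, and MIR7122a_5p and miR4376_5p were called lower in flower against both leaf and root. For these families, results without leaf41 are not given. MIR7122a_5p differed by log2 -2.44 ± 0.56 SE between flower and root (edgeR adjusted p = 0.00684), and miR4376_5p by -4.63 ± 1.06 (adjusted p = 0.00684). The latter had 10, 15 and 16 reads in root, 1, 0 and 1 in flower, and 6, 19 and 2 in leaf, so its leaf reads came mostly from leaf23, whereas those of miR5301_3p came from leaf41. Whether the members differ from these families was not tested.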

How the data were processed

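The series holds 9 small RNA libraries, 3 for each organ. TRIzol RNA was depleted of rRNA and made into Illumina libraries, per the labels' protocols. The sources used here do not name the aligner or counter. The authors' deposited table holds raw read counts per library and, per the file headers, a rounded score called RPTM, which equals the count over a constant of 2.11 to 2.25 in each library and was not tested. A blank row was left out (1 row). Rows of the same sequence were joined.

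Counts were tested with edgeR 4.0.16 (R 4.3.3) with filterByExpr by organ, TMM, all 9 libraries in 1 fit, organ as the only factor, and the quasi-likelihood F test. SE is the absolute log2 fold change over the square root of F. Arms were folded with ViennaRNA 2.7.2. Only the edgeR fit was tried on simulated counts with known folds, and the outcome is not given here. The other steps were not tried in this way. Alternatives were DESeq2 1.42.0, other scalings, rows as listed, no filter, 6 libraries and leaving out each library. No label says that libraries came from separate plants, so a p-value reflects only the spread among them. Members with at least 10 reads are described one by one, the others by counts. The shared runs and ratios were picked after values were seen. The members and lists were chosen with earlier results of these data known.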

Additional observations from a re-analysis of the deposited data

How the results depend on the processing

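No paired analysis was possible because any 2 organs share at most 1 number in their titles (23 in root and leaf, 1 in flower and leaf), and replicates 1 to 3 are numbered in accession order. For root against leaf, the members called were 2 of 6 in the report and 4 of 6 with DESeq2. They were 1 of 6 with the DESeq2 size factors, 0 of 7 with the authors' divisor and 0 of 6 with rows as listed. With no low-count filter they were 0 of 43, and with only the 6 libraries 0 of 6. With a library left out they were 0 to 3 of 7 or 8. For flower against leaf, 1 of 6 in the report, they were 0 of 7 with the authors' divisor and 2 of 43 with no low-count filter. With only the 6 libraries they were 0 of 4, where the called MIR1446a_3p did not pass the filter. With a library left out they were 0 to 2 of 7 or 8. For flower against root, 1 of 6 in the report, they were 2 of 6 with DESeq2 and with library totals. They were 2 of 8 with only the 6 libraries and 4 of 43 with no low-count filter. With a library left out they were 0 to 2 of 7 or 8. Over all sequences the calls were 45, 47 and 55 of 129. With a library left out they were 25 to 80, 31 to 61 and 38 to 71 of 134 to 141. For root against leaf they were 68 of 129 with DESeq2, 54 of 129 with its size factors and 39 of 131 with the authors' divisor. Rows as listed gave 50 of 155, no filter 65 of 276 and the 6 libraries 38 of 118. For flower against leaf the divisor gave 51 of 131, no filter 63 of 276 and the 6 libraries 41 of 116. For flower against root DESeq2 gave 63 of 129, library totals 56 of 129, no filter 71 of 276 and the 6 libraries 70 of 129. Signs turned for 4 differences, none of them called. These were MIR7782l_5p for flower against leaf over the rows as listed (-0.41) and with only the 6 libraries (-0.22), and MIR7782n_3p there with the authors' divisor (0.50) and with a library left out (-0.99 to 0.38). They were also miR5301_3p for flower against leaf with a library left out (-2.43 to 0.76, the latter without leaf41), and MIR7782h_3p for flower against root with DESeq2 and its size factors (0.23), the authors' divisor (0.56), no low-count filter (0.43), only the 6 libraries (0.035), and with a library left out (-0.40 to 0.80). The cause was not tested. Requiring 3 reads in a library left 10 members in root, 11 in flower and 9 in leaf, requiring 10 reads left 9, 7 and 7, and requiring all 3 libraries left 9, 11 and 5. The members' share was 0.13%, 0.066% and 0.0624% in root, flower and leaf over the rows as listed, and 0.00514%, 0.00499% and 0.00242% of the reads implied by the authors' divisor, if RPTM means per 1e+07 reads. Leaving out a library gave 0.196% to 0.285%, 0.0827% to 0.141% and 0.102% to 0.113%. Counts under 10 a library limit most members.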
